A study of Mus musculus with 12 samples.

Results

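The late response to B cell receptor crosslinking in cells labelled Zfx-deleted was read by setting the 2 arrays titled ZFXcko at 12 h against the 2 titled ZFXcko at 0 h, 4 of the series' 12 arrays. All cells were splenic follicular B cells of 8-week-old male 129SvEv mice, sorted as B220+, AA4.1-, CD23 high and CD21 intermediate. They were cultured with anti-IgM at 10 µg/mL for 0, 2 or 12 h, in wild-type (wt) and ZFXcko (cko) cells, with 2 arrays for each genotype and time. The labels name the deletion as cko, and no driver of the recombinase was given in the sources used here. Labelled RNA was hybridized in duplicate, per the labels' protocols, so the p-values measure no more than the spread within these pairs of arrays, possibly a technical one. Across 12190 genes, each response is given as a log2 difference of (signal + 16) at 12 h minus 0 h, ± SE with n = 2 arrays a group. A gene is given by its brightest probe set unless stated. A gene was called at a limma adjusted p under 0.05 (Benjamini-Hochberg, two-sided), and the words rose and fell are kept for called genes. A change on this scale understates the change of dim genes, and in sorted bulk cells fewer cells of a type and less RNA per cell cannot be told apart.

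Follicular B cells are the resting, recirculating B cells of the spleen. Crosslinking of their receptor by anti-IgM activates the SYK and BTK kinases, calcium and ERK signalling, and within hours takes the cell out of quiescence into growth and towards the first division, while a cell without a second signal can also die. Zfx encodes a zinc-finger transcription factor of the X chromosome that is known for its part in the maintenance of stem cells and lymphocytes.

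Zfx itself was read by 3 probe sets past the filter on dim values. On the brightest, the arrays read 2189 and 2618 at 0 h and 1237 and 1341 at 12 h, against 982 and 1041 at 0 h and 1012 and 962 at 12 h in wild type. The arrays labelled cko were thus the higher ones at both times, and Zfx fell over the culture in cko (-0.89 ± 0.09) on 2 of its 3 probe sets. The third, with group means of 52.7 and 30.2, was not called. Where the deleted part lies relative to these probe sets was not stated, so they do not check the genotype. Transcripts of the B cell receptor chain Cd79a read 2430.5 and 2391 at 0 h and 2121 and 2105 at 12 h and those of the surface protein CD20 (Ms4a1) 11426 and 10951 at 0 h and 11799 and 11885 at 12 h, both bright in all 4 arrays. Of 10 B cell markers tested 8 were lower at 12 h and 0 higher (median -0.94), and the mean of the Ms4a1 probe sets differed by -0.68.

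Control probe sets separated the groups compared. The 5′ signal of actin was 1.99 and 1.80% of its 3′ signal on the arrays at 0 h and 19.1 and 19.0% at 12 h, and for Gapdh the share was 1.58 and 1.54% at 0 h and 12.6 and 13.1% at 12 h. In wild type, the actin share was 3.27 and 3.33% at 0 h and 2.11 and 2.27% at 12 h. The 3′ signal of 18S ribosomal RNA was 7339 ± 304 at 0 h and 1067 ± 47 at 12 h in cko (SD, n = 2), and the spike-in CreX read 29670 ± 3166 and 13750 ± 4385. The cko 12 h arrays lie with both 2 h groups in this respect, and the other 3 groups lie together. The cko response therefore crosses a division of the arrays that the wild-type response does not, and its part in the cko response was not tested. The arrays of a pair correlated at r = 0.974 to 0.984 over probe sets, which do not count as independent points.

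**Figure D1:**
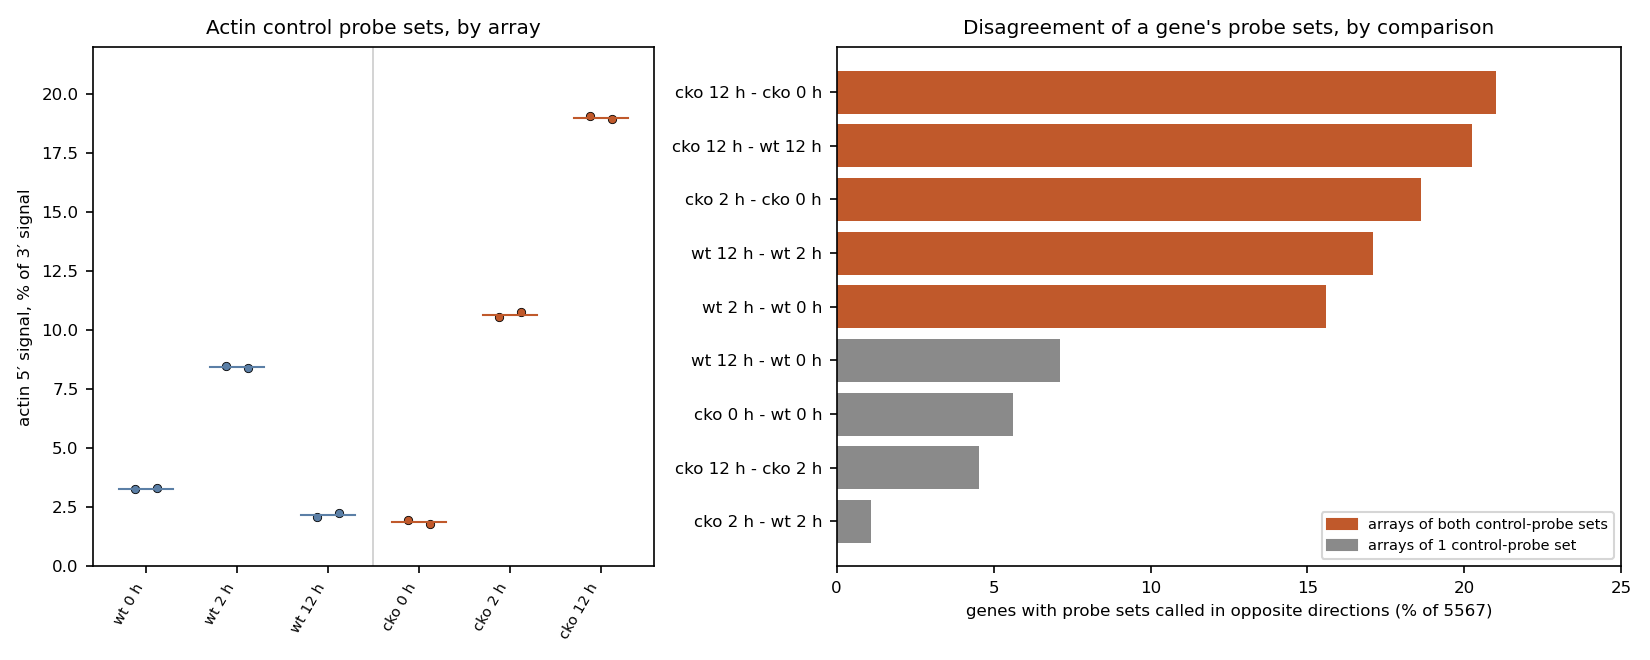
Left, 5′ signal of the actin control as a percentage of its 3′ signal on each of the 12 arrays (points) with group means (bars), linear axis. Right, share of the 5567 genes with several probe sets whose probe sets were called in opposite directions, for 9 comparisons of 2 groups. Comparisons within 1 set of arrays lie at 1.10 to 7.11%, and those across the sets at 15.6 to 21%, with the cko 12 h response the highest at 21%. More probe sets were called across the sets (48.1 to 60.59%) than within (21.59 to 43.83%). As a share of genes with at least 2 called probe sets, not drawn, the ranges overlap, at 8.09 to 30.29% within and 29.27 to 47.85% across. The cko 12 h response is at 40.77% on that measure and not the highest.

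In cko cells 7184 genes, 58.9% of those tested, were called at 12 h. Of these, 3152 (25.9%) rose and 4032 (33.1%) fell, and 1499 and 1902 did so by at least 2-fold. The median over all genes was -0.20, so a list's median is read here beside that value. A list's counts of rises and falls are likewise read beside 25.9 and 33.1%. Under median scaling of the arrays it was 0.16 and under quantile normalization -0.07, and 43.9% of the calls were rises as deposited, against 65.7% after median scaling (36.9% of genes higher and 19.3% lower). Counts after median scaling are given beside some of the lists, and the split of a list without them may move with it too. Arrays at 12 h and 0 h did not overlap for 79.3% of the genes.

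The agreement of a gene's probe sets was read for the 5567 genes with several past the filter. All probe sets of 467 genes (8.39%) rose and all of 550 genes (9.88%) fell, 1017 genes in all. Another 1169 genes (21%) had probe sets called in opposite directions, 2545 were called in part with no opposite calls, and 836 had no called probe set. Among the 3861 such genes called by their brightest probe set, 26.3% had every probe set called the same way. In the wild-type response the count with opposite calls was 396 (7.11%), and 441 (7.92%) and 446 (8.01%) genes had all probe sets higher or lower. Among genes with at least 2 called probe sets, 40.77% had opposite calls in cko and 19.32% in wild type. Of the wild-type genes called by the brightest probe set, 26.9% had every probe set called the same way.

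Among genes with every probe set called the same way, the largest rises took in a cell cycle inhibitor, a cytokine receptor chain, an early transcription factor, sterol synthesis enzymes and mitochondrial subunits. Cdkn1a, the CDK inhibitor p21, read 176 and 142 at 0 h and 2277 and 1901 at 12 h, a difference of 3.59 ± 0.14 (adjusted p = 6.5e-11). Both of its 12 h arrays lay above 2 h, which read 657 and 781, and the wild-type rise was 4.13 ± 0.14. Il2ra, the high-affinity chain of the interleukin 2 receptor and a marker of activation, read 5.9 and 27.2 at 0 h and 333 and 314 at 12 h (3.46 ± 0.23, adjusted p = 1.4e-08), beside 3.38 ± 0.23 in wild type. Its 0 h arrays were close to the floor of the signal, and the 12 h arrays lay far above both. Egr2, a zinc-finger factor induced by antigen receptors, read 634 and 772 at 0 h and 6249.6 and 7091 at 12 h (3.22 ± 0.12), lower than its 10209 and 10095 at 2 h. Rps27l, a p53-induced ribosomal protein paralogue, read 606 and 649.9 at 0 h and 6542 and 6461 at 12 h on the brightest of 3 probe sets (3.34 ± 0.07).

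The sterol enzymes were Idi1, isopentenyl diphosphate isomerase, at 234 and 333 at 0 h and 3128 and 3463 at 12 h (3.49 ± 0.13), and Msmo1, a C4-methyl sterol oxidase, at 47.9 and 25.2 at 0 h and 691 and 671 at 12 h (3.76 ± 0.21). Idi1 rose by 3.06 ± 0.13 in wild type, and Msmo1 by 0.58 ± 0.21. Uqcrh, a hinge subunit of respiratory complex III, had the largest rise of the set, with 301 and 210.0 at 0 h and 4367 and 4556 at 12 h (4.06 ± 0.12). Its wild-type arrays read 235 and 250.2 at 0 h and 252 and 259.8 at 12 h, a difference of 0.07 ± 0.12 that was not called. At 2 h Uqcrh read 4461.5 and 4562 in wild type and 4379 and 4663 in cko, near its cko 12 h arrays. Atp5o, a stalk subunit of ATP synthase, read 423 and 407 at 0 h and 3902 and 4124 at 12 h (3.22 ± 0.07), against 0.59 ± 0.07 in wild type. Its other probe set rose by only 0.40 ± 0.155 in cko, beside 0.50 ± 0.155 in wild type, and did not differ by call between the genotypes. Gclm, the modifier subunit of the enzyme that starts glutathione synthesis, read 109.5 and 86.9 at 0 h and 1160.2 and 874 at 12 h (3.17 ± 0.15, wild type 0.69 ± 0.15). In each of these the cko arrays at 12 h lay clear of those at 0 h. The other rises of this kind were Nop16 (3.30), Haghl (3.24), Slc6a6 (3.14), Psrc1 (2.99), Slco4a1 (2.89) and Cops6 (2.85). Nop16 is a nucleolar protein, Slc6a6 the taurine transporter, Psrc1 a spindle protein and Cops6 a subunit of the COP9 signalosome.

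The largest falls took in a heat shock gene, autophagy genes, a cytokine signal inhibitor, a GIMAP GTPase and 2 transcription factors. Trp53inp2, which takes part in autophagosome formation, read 2312 and 2377 at 0 h and 52.7 and 32.2 at 12 h, a difference of -5.36 ± 0.18 (adjusted p = 1.6e-11). It already read 88.9 and 68.6 at 2 h, and its wild-type difference was -4.35 ± 0.18. Socs3, an inhibitor of cytokine signalling through JAK and STAT, read 1152 and 1334 at 0 h and 73.2 and 29.5 at 12 h (-4.30 ± 0.25) and fell on all 3 probe sets. Gimap7, a lymphocyte GTPase of the immunity-associated protein family, read 7479.5 and 7416 at 0 h and 409.5 and 419.6 at 12 h (-4.12 ± 0.10). Klf4, a Krüppel-like factor of quiescent B cells, read 3547 and 3299 at 0 h and 202 and 176 at 12 h (-4.07 ± 0.12) and was still at 2898 and 2787 at 2 h, so that most of its fall lay between 2 and 12 h. Jun, a subunit of AP-1, read 5079 and 4838 at 0 h and 393 and 408 at 12 h (-3.58 ± 0.10).

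These 5 genes fell in wild type too, where Socs3 and Klf4 differed by -4.56 ± 0.25 and -4.25 ± 0.12 and Jun by -2.21 ± 0.10. The other falls of this kind were Hspa1b (-5.46), St3gal1 (-3.51), Marchf1 (-3.46), Csf1r (-3.44), Sorl1 (-3.30), Atg13 (-3.28), Mical1 (-3.22), Tgfbi (-3.16), Tgm2 (-3.06) and Diaph1 (-3.02). Marchf1 is a ubiquitin ligase that removes MHC class II from the surface, St3gal1 a sialyltransferase, Sorl1 a sorting receptor, Atg13 a part of the autophagy-starting kinase complex, Mical1 an actin oxidase and Diaph1 a formin. Csf1r is the receptor of a macrophage growth factor and a marker of myeloid cells, and read 1547 and 1634 at 0 h and 129 and 134 at 12 h. The summed signal of 14 other myeloid markers was 1489 and 1490 at 0 h and 978 and 1008 at 12 h, and the part of such cells in the falls was not tested.

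**Figure D2:**
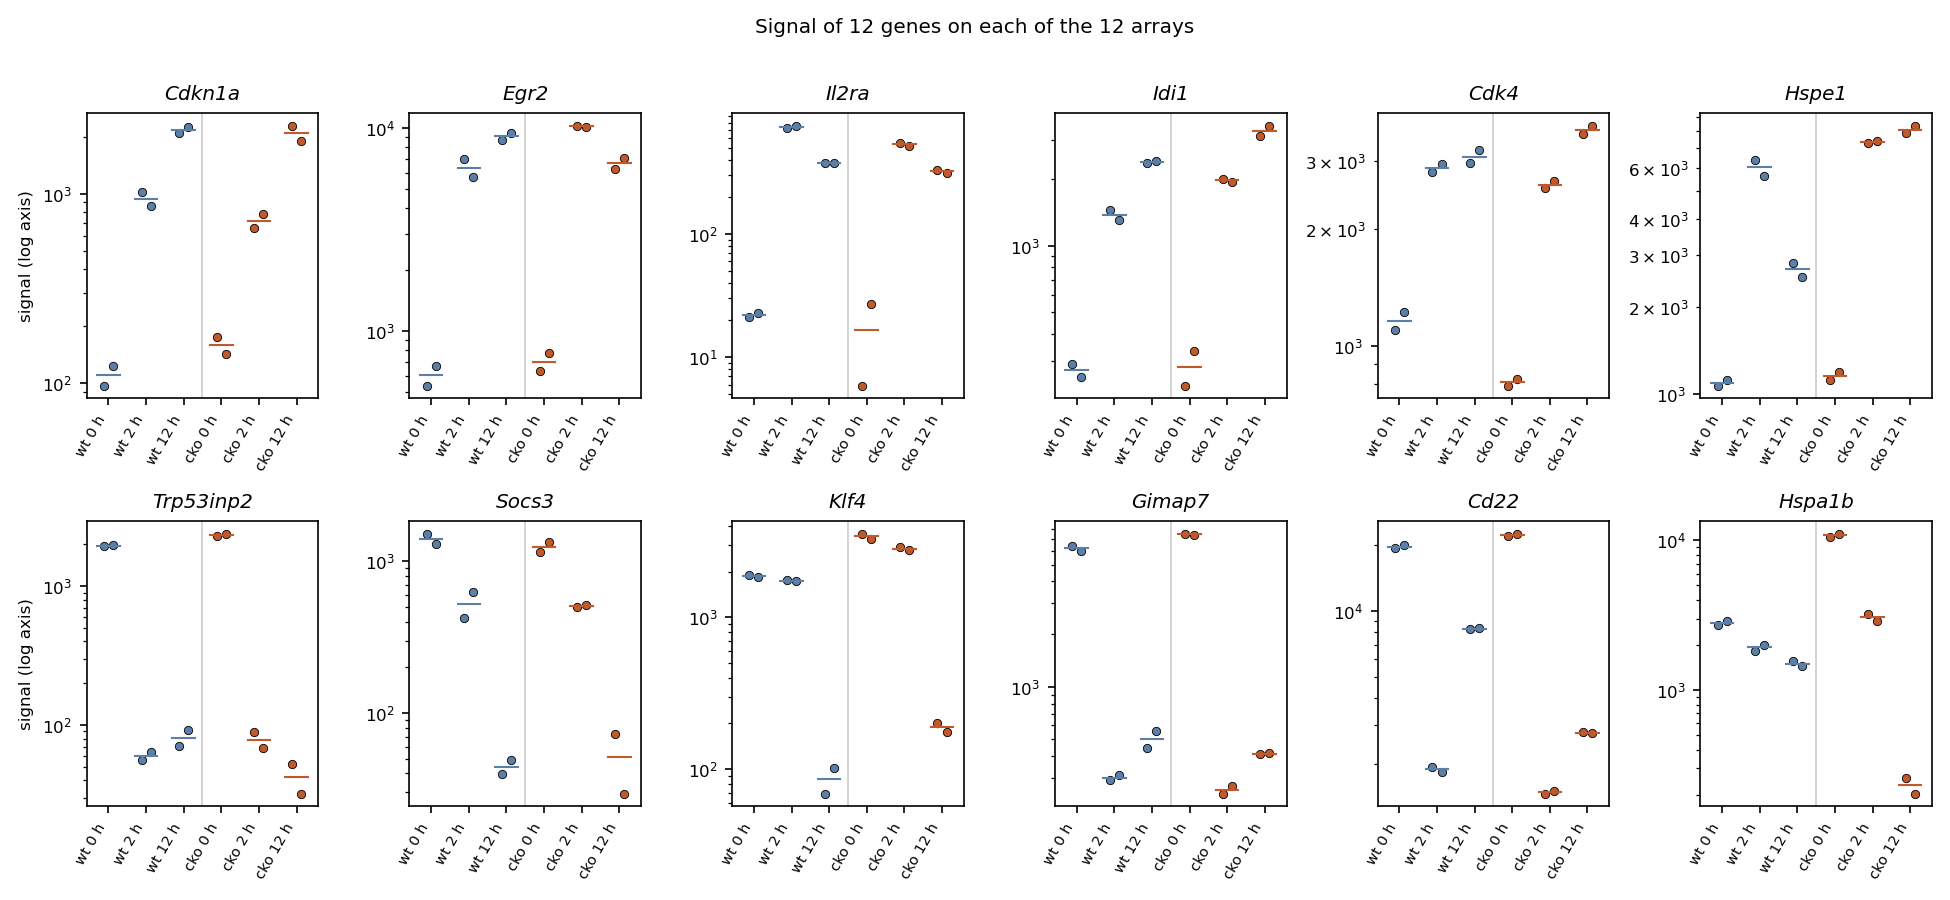
Signal of 12 genes on each of the 12 arrays (points, log axis) with group means (bars), wild type in blue and cko in orange. In the cko panels Cdkn1a goes from 176 and 142 at 0 h to 2277 and 1901 at 12 h and Klf4 from 3547 and 3299 to 202 and 176, with no overlap of the 0 h and 12 h arrays in any of the 12 genes.

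Early response genes at 12 h were split between factors still above rest and factors below it. Nr4a3, an orphan nuclear receptor, read 36.4 and 32.5 at 0 h and 819.5 and 853 at 12 h (4.08 ± 0.10) after 10566 and 11001 at 2 h. Egr1, whose single probe set read 1950.4 and 1849 at 0 h and 4019.7 and 4101 at 12 h, rose by 1.09 ± 0.06, and Myc, the growth-promoting factor, read 556 and 777 at 0 h and 952 and 1062 at 12 h (0.60 ± 0.12, adjusted p = 0.00064). Myc had stood at 5863 and 5784 at 2 h, and its wild-type difference at 12 h was 0.08 ± 0.12, not called. Of 9 NR4A, EGR and NAB genes, 7 were higher and 2 lower, Nab1 (-0.74) and Egr4 (-0.95), with a median of 0.67. Opposite calls were found in 2 of the 4 with several probe sets.

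The AP-1 and early factor list ran the other way, with 4 of 14 higher, 8 lower and a median of -1.16. Fos, the partner of Jun in AP-1, read 15868 and 15575 at 0 h and 205 and 217 at 12 h, a difference of -6.11 ± 0.07 (adjusted p = 4.9e-16) on 1 probe set, and Fosb fell by 4.80 ± 0.11. The wild-type differences were -5.22 ± 0.07 and -3.73 ± 0.11. Members of the family that rose were Fosl1 (2.08), Fosl2 (1.62), Batf (1.42) and Ier2 (0.74), of which Fosl1 and Fosl2 encode FOS-related antigens and Batf a factor of activated lymphocytes. Batf and Ier2 did not rise in wild type (-0.24 ± 0.21 and -1.12 ± 0.10).

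Of 12 feedback genes of the MAP kinases, 2 were higher and 7 lower (median -0.49), against 3 higher and 3 lower after median scaling. Dusp1, a phosphatase that inactivates MAP kinases, read 6500.5 and 6255 at 0 h and 236 and 185 at 12 h (-4.83 ± 0.09), and Dusp6, which acts on ERK, fell by 2.35 ± 0.16. Dusp4 (1.99 ± 0.12) and Dusp5 (0.95 ± 0.21) were the 2 members that rose. Of 12 NF-kB subunit and inhibitor genes 4 were higher, among them Relb (1.61) and Rel (0.52), and 8 lower (4 higher and 5 lower after median scaling). Nfkb2, the precursor of p52, read 1327 and 1211 at 0 h and 364 and 382 at 12 h and fell on both probe sets (-1.72 ± 0.11), while in wild type it was 1078 and 905 at 0 h and 1157 and 1263 at 12 h (0.29 ± 0.11). Of 7 SOCS family genes 1 was higher (Socs7, 1.36 ± 0.07) and 3 lower, Socs3 with Socs5 (-1.12) and Socs2 (-1.40), and 3 higher and 3 lower after median scaling. In the MYC network 2 of 11 were higher, Myc and Mlx, and 7 lower, among them the MAX-binding repressors Mnt (-1.76), Mxd4 (-1.82), Mxd1 (-0.98) and Mxi1 (-0.85).

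Heat shock proteins are chaperones that fold new and damaged proteins, and many of their genes are driven by heat shock factor through elements made of repeated nGAAn units. The upstream stretches of the inducible HSP70 genes and of Hspe1, the small subunit of the mitochondrial chaperonin, are shown because these genes moved furthest in opposite directions. The sequences are from RefSeq on the GRCm38.p6 build, 250 bases before each start, 5′ to 3′ on the gene's strand. They lie at chr17:34959239-34959488 (minus strand), chr17:34972157-34972406 (minus strand) and chr1:55087898-55088147 (plus strand), and capitals mark matches of the paired units GAANNTTC and TTCNNGAA, which read the same on both strands and can overlap.
Hspa1b: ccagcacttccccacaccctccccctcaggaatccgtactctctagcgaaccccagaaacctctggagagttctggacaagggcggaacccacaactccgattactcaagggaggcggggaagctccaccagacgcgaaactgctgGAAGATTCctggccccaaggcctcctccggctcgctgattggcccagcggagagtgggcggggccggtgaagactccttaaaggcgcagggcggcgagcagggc
Hspa1a: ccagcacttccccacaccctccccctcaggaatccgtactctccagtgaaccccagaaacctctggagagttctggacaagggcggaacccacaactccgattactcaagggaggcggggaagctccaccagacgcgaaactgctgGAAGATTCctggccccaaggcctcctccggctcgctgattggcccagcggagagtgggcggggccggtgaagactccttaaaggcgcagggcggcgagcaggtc
Hspe1: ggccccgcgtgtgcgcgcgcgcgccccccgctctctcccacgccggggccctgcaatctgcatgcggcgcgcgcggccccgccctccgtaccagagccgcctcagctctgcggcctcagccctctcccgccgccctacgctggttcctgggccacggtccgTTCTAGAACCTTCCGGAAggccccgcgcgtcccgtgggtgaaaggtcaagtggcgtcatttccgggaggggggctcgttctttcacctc
Hspa1b and Hspa1a differ at 3 of these 250 bases (98.8% identical) and each has 1 match, while Hspe1 has 3 overlapping ones. Of all 32851 promoter windows of 300 bases, 7.86% hold GAANNTTC and 8.52% hold TTCNNGAA. Among the 18 chaperone genes with a window, 9 hold the former in at least 1 window and 5 the latter, beside 9.04 and 9.6% of all 27025 genes. A match is a description of the letters and not a site.

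Hspa1b, the inducible HSP70, read 10582 and 11042 at 0 h and 259 and 203 at 12 h on the brightest of 3 probe sets, a difference of -5.46 ± 0.10 (adjusted p = 1.2e-13), with 3243 and 2913 at 2 h. All 3 probe sets fell, with differences of -4.94, -5.61 and -5.46. Hspa1a, on 1 probe set, read 3777 and 4767 at 0 h and 129 and 69.2 at 12 h (-5.26 ± 0.21). In wild type Hspa1b was 2734 and 2892 at 0 h and 1559 and 1438 at 12 h (-0.90 ± 0.10) and Hspa1a 682 and 795 at 0 h and 1075 and 1169.8 at 12 h (0.59 ± 0.21). At rest the arrays labelled cko thus stood above the wild-type ones for both genes, and at 12 h below them. The copies are nearly identical, so the division of signal between them is uncertain.

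Of 21 chaperone genes tested, 9 rose and 9 fell, with a median of 0.14. Hspe1 read 1115 and 1189 at 0 h and 7875 and 8352 at 12 h and rose on both probe sets (2.80 ± 0.07), and its partner Hspd1 rose by 1.33 ± 0.06. Hspa9, the mitochondrial HSP70, rose on all its probe sets (1.003 ± 0.06), and Hspa14 rose by 1.64 ± 0.08. Falls were found for the cytosolic Dnajb1 (-1.32), Hsph1 (-1.47), Hspa8 (-0.88) and Hsp90aa1 (-0.50) and for Dnajb9 (-2.94), Dnajb4 (-0.89) and Hspa2 (-0.71). Dnajb1, the HSP40 that works with HSP70, read 8749.6 and 8927 at 0 h and 3486 and 3572 at 12 h and fell on both probe sets. Hspa8 and Hsp90aa1 were among the 6 chaperone genes whose probe sets were called in opposite directions. In wild type 15 of the 21 were higher and 3 lower (median 0.66). Of the 14 genes of the chaperonin CCT and of prefoldin, which fold actin and tubulin, 9 rose, led by Pfdn2 (3.66) and Cct8 (2.85), and 2 fell, Cct7 (-0.49) and Pfdn5 (-0.69) (12 higher and 0 lower after median scaling). In this list 3 of 6 members with several probe sets had opposite calls.

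Genes of the entry into the cell cycle were mixed. The kinase Cdk4, which pairs with D cyclins in G1, read 792 and 824 at 0 h and 3518 and 3687 at 12 h and rose on all 3 probe sets (2.13 ± 0.07, adjusted p = 1.3e-11). The 250 bases before its start hold 4 matches of the E-box CACGTG, a motif bound by MYC and related factors that reads the same on both strands, and 7.15% of all windows hold at least 1. They are shown for that reason, at chr10:127063285-127063534 on the plus strand of GRCm38.p6 (RefSeq), with the matches in capitals.
Cdk4: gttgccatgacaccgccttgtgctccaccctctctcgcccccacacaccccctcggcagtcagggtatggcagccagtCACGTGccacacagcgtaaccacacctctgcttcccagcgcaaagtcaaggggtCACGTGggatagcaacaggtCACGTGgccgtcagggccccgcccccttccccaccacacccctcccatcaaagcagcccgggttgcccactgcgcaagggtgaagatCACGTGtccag
Ccnd2, the main D cyclin of B cells, read 1658 and 1622 at 0 h and 3531 and 3699 at 12 h on the brightest probe set (1.13 ± 0.06). It rose on 6 of 7 probe sets, by 0.29 to 2.70, and the remaining probe set was at -0.43 and not called. In wild type all 7 rose. Ccnd1 fell on both its probe sets (-1.46 ± 0.19), and Ccnd3 was called in opposite directions (0.73 ± 0.14 on the brightest). Cdk2 rose by 1.52 ± 0.17, and Rb1, the brake on E2F, fell on both probe sets (-1.05 ± 0.08). Of 16 G1 cyclin, kinase and E2F genes 7 rose and 2 fell.

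Among 9 inhibitors of proliferation, Cdkn1a rose the most, and Btg2 (1.11) and Tob2 (0.56) rose too. Btg2, an antiproliferative gene, read 2664 and 2555 at 0 h and 5580.3 and 5740.0 at 12 h and rose on both probe sets, whereas in wild type it read 1961 and 1820.3 at 0 h and 1369 and 1391 at 12 h and fell (-0.45 ± 0.07). Cdkn1b, the inhibitor p27 of resting lymphocytes, read 539.9 and 547 at 0 h and 115 and 106 at 12 h (-2.14 ± 0.16) and fell in wild type as well (-1.55 ± 0.16). The other falls were Cdkn2d (-1.34), Btg1 (-0.64) and Cdkn2c (-0.44).

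DNA replication genes were evenly split on the brightest probe set, with 15 of 39 higher, 15 lower and a median of 0.05. The count was 21 higher and 7 lower after median scaling, and 20 and 8 averaged over probe sets. Pcna, the sliding clamp, read 1713 and 1874 at 0 h and 9452 and 9786 at 12 h (2.41 ± 0.06) on 1 probe set, and Gins1 (2.45), Uhrf1 (2.16) and Pold2 (2.02) rose too. Orc1 and Fen1 rose on every probe set (1.55 ± 0.37 and 0.48 ± 0.10), while Pold1 (-1.73), Rfc2 (-1.53), Cdt1 (-1.48) and Dnmt1 (-1.29) fell on every probe set. Pold1, the catalytic subunit of polymerase delta, read 4697 and 4280.2 at 0 h and 1256 and 1438 at 12 h. Another 8 replication genes had opposite calls. Of 29 genes of G2 and mitosis 5 were higher and 11 lower (median -0.26), against 7 higher and 3 lower after median scaling (median 0.10). Mki67, a marker of cycling cells, read 209 and 215 at 0 h and 25.6 and 38.4 at 12 h (-2.26 ± 0.39), and Top2a (-0.94) and Ccna2 (-0.56) fell on every probe set. In wild type 18 of the 29 were lower (median -0.87).

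Of 34 proteasome subunits and activators, the machine that degrades ubiquitin-tagged proteins, 33 were higher and Psma6 was lower (-0.18 ± 0.04). The median was 1.15, against -0.20 for all genes. Psmb7, a catalytic subunit, read 193 and 236 at 0 h and 2495 and 2309 at 12 h (3.40 ± 0.14), and Psma7, of the outer ring, read 640.1 and 662 at 0 h and 4784 and 3638 at 12 h and rose on both probe sets (2.65 ± 0.12). Of 18 proteasome genes with several probe sets, 8 rose on all and 3 had opposite calls, Psma6 with Psmb1 and Psma3. In wild type 33 of the 34 rose (median 1.02).

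Ribosome biogenesis genes, which make and process ribosomal RNA in the nucleolus, followed with 37 of 44 higher and 2 lower (median 1.09). Nop58, a core protein of box C/D particles, read 120.1 and 83.0 at 0 h and 2666 and 2766 at 12 h (4.56 ± 0.13), after 4546 and 4811 at 2 h. Fbl, the methyltransferase of the same particles, read 1377 and 1296 at 0 h and 6826 and 7472 at 12 h and rose on both probe sets (2.40 ± 0.07). In all, 11 of the 31 genes with several probe sets rose on every one, among them Nop16 (3.30), Wdr12 (2.17), Ddx21 (1.41), Nhp2 (1.37) and Npm1 (1.05). These 11 genes rose in wild type as well. The 2 lower members were Bop1 (-0.55) and Nop10 (-0.20), and both had opposite calls. Of the 38 genes of this list with a window, 9 hold the E-box CACGTG in at least 1, beside 8.09% of all 27025 genes with a window.

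Mitochondrial ribosomal proteins rose for 42 of 50 members and fell for 2, Mrpl3 (-0.41) and Mrpl13 (-0.40) (median 0.90). Mrpl50, a large-subunit protein, read 188 and 165 at 0 h and 1332 and 1394 at 12 h and rose on both probe sets (2.84 ± 0.12), and Mrps10 did so too (1.74 ± 0.07). Nuclear transport genes, which carry proteins and RNA through the nuclear pore, rose for 21 of 33 and fell for 4 (29 higher and 2 lower after median scaling). The largest rises were Alyref (3.87), Rcc1 (3.64) and Ranbp1 (3.54), of which Rcc1 and Ranbp1 control the GTPase Ran, and the falls were Kpna4 (-1.13), Tnpo1 (-0.86), Nup62 (-0.36) and Thoc1 (-0.40).

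Translation initiation and elongation factors were higher for 20 of 33 and lower for 9 (24 higher and 4 lower after median scaling). Opposite calls were found in 8 of the 22 with several probe sets. Eif4a1, the helicase that unwinds messenger RNA leaders, read 1232 and 1054 at 0 h and 5772 and 5865 at 12 h and rose on all 3 probe sets (2.33 ± 0.07), and Eif1a and Eif5a rose on every probe set (1.24 ± 0.08 and 0.41 ± 0.05). The largest fall was that of Eef2k (-1.63 ± 0.23), the kinase that stops elongation. Of 18 tRNA synthetases 12 rose, led by Rars (2.77), Tars (2.56) and Eprs (2.01), and 5 fell (13 higher and 3 lower after median scaling), led by Vars at -1.56 ± 0.09. In this list 3 of 10 members with several probe sets had opposite calls. The genes of the TCA cycle and of mitochondrial import were higher for 20 of 31 members and lower for 8 (24 higher and 4 lower after median scaling), with rises of Timm10 (2.12), Tomm40 (1.99) and Idh3a (1.92) and the largest fall in Dlst (-1.86 ± 0.09). Here 7 of 21 members with several probe sets had opposite calls.

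By the brightest probe set 37 of 71 oxidative phosphorylation subunits were higher and 20 lower, with a median of 0.26, while in wild type 60 were higher and 3 lower (median 0.78). Of 45 members with several probe sets, 22 had opposite calls in cko and 4 in wild type. Averaged over the probe sets of a gene the count was 54 higher and 6 lower, and with median scaling 51 and 2. Of the 45, 11 rose on every probe set, Uqcrh (4.06), Atp5o (3.22), Sdhc (2.46), Atp5k (2.16), Ndufb6 (1.32) and Atp5g2 (1.17) among them, and 10 of those rose in wild type too. Ndufs4, an accessory subunit of complex I, was the member with the widest gap, with probe sets at 3.86, 0.14, -0.48 and -1.72.

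**Figure D3:**
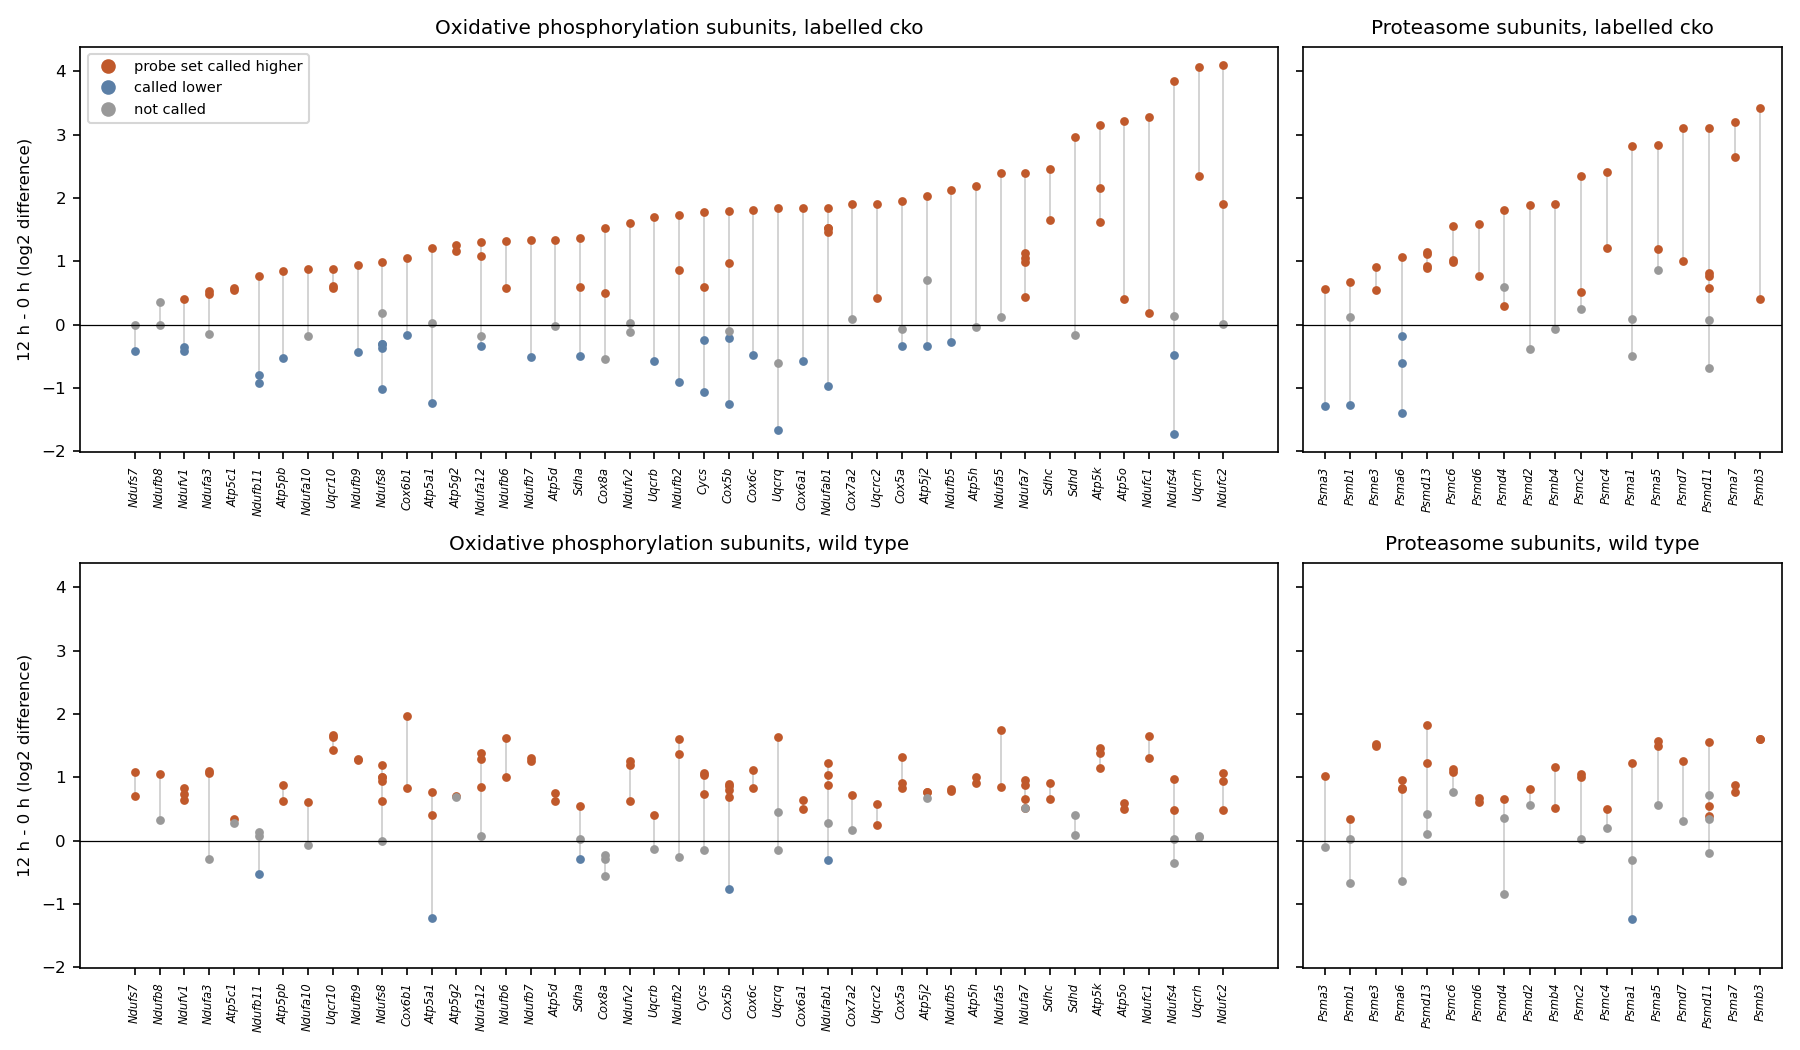
Log2 difference of signal at 12 h minus 0 h for each probe set past the filter, by gene, for oxidative phosphorylation (left) and proteasome (right) genes with several probe sets, in cko (top) and wild type (bottom). Grey lines join a gene's probe sets, and genes are ordered by their highest cko value. In cko 22 of 45 oxidative phosphorylation genes hold both orange (called higher) and blue (called lower) points, and 3 of 18 proteasome genes do.

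Cytosolic ribosomal proteins were lower for 21 of 33 and higher for 9 (median -0.40). That direction depended on the scaling, since the median was 0.07 after quantile normalization and 0.02 after median scaling, with 13 higher and 9 lower after median scaling. Of 16 with several probe sets, 10 had opposite calls, and Rps28 (-0.63) and Rps29 (-0.80) were the 2 that fell on every probe set. The largest rise was in Rps9 (2.30 ± 0.07) and the largest fall in Rpl12 (-1.18 ± 0.08). Spliceosome genes were higher for 18 of 34 and lower for 9, with opposite calls in 13 of 24 (25 higher and 3 lower after median scaling). Those that rose on every probe set included Lsm6 (1.69), Prpf31 (1.41) and Sf3a3 (1.06), and Sf3b4 fell on both (-0.56 ± 0.09) while it was higher in wild type (0.80 ± 0.09).

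Enzymes that make nucleotides and folate-bound carbon rose, 24 of 33 higher and 2 lower (median 0.89). Shmt1, a serine hydroxymethyltransferase, read 97.2 and 76.3 at 0 h and 492 and 445 at 12 h and rose on all 3 probe sets (2.24 ± 0.37), close to its wild-type rise of 2.41 ± 0.37. Mthfd2, a mitochondrial folate enzyme, read 1028 and 1065 at 0 h and 4831 and 4739.9 at 12 h (2.18 ± 0.09, wild type 2.11 ± 0.09). Others that rose on every probe set were Ppat (1.26), Psat1 (1.005), Atic (0.78), Phgdh (0.54), Aprt (0.53) and Umps (0.32), and all 8 such genes rose in wild type. The 2 lower members were Rrm2 (-1.07) and Prps2 (-0.26), the former a subunit of the enzyme that makes deoxynucleotides.

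Of 33 sterol and lipid genes 18 rose and 8 fell (median 0.45, 20 higher and 5 lower after median scaling). Besides Idi1 and Msmo1, the synthesis enzymes Cyp51 (2.84), Hmgcs1 (1.43) and Fdft1 (1.38) rose on every probe set, and Sqle (2.86) and Fdps (2.54) rose on 1. Cyp51, lanosterol demethylase, read 77.3 and 67.0 at 0 h and 568 and 666 at 12 h. The falls on every probe set were the cholesterol exporter Abcg1 (-1.72 ± 0.10) and the desaturases Scd1 (-0.87) and Scd2 (-0.95), and Mylip (-2.10) and Abca1 (-0.69), a degrader of the LDL receptor and another exporter, were lower too. These 5 falls were also called in wild type.

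Glycolysis and pentose phosphate genes rose for 15 of 24, with Slc16a1 (2.35), Aldoa (1.46) and Pgam1 (1.21) among the larger rises, and Tpi1, Rpe and Pgk1 rose on every probe set (1.10 ± 0.07, 0.72 ± 0.14 and 0.27 ± 0.08). The glucose transporters went lower, Slc2a3 from 3141 and 3327 to 708 and 599.9 on the brightest of 2 agreeing probe sets (-2.28 ± 0.08), and Slc2a1 on its brightest probe set (-1.19 ± 0.10), with opposite calls. Of 20 redox genes 12 rose and 5 fell, with opposite calls in 5 of 15 with several probe sets. Gclc, the catalytic partner of Gclm, read 308 and 338 at 0 h and 1854 and 1817 at 12 h (2.45 ± 0.07), and the thioredoxin Txn1 read 3743 and 3332 at 0 h and 16349.8 and 17503 at 12 h (2.25 ± 0.06), both on every probe set.

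In the amino acid and integrated stress response list 13 of 26 rose and 5 fell (18 higher and 2 lower after median scaling). Asns, asparagine synthetase, read 765 and 726 at 0 h and 1855 and 1729.5 at 12 h and rose on both probe sets (1.25 ± 0.10), as did Trib3 (1.61), Cebpg (1.20) and Cebpb (1.17). Atf4, the factor that drives this response, was higher on its brightest probe set (1.21 ± 0.06) but had opposite calls. Cebpb read 205 and 199 at 0 h and 488 and 464 at 12 h, while in wild type it read 260.2 and 318 at 0 h and 51.4 and 28.6 at 12 h and fell (-2.47 ± 0.18). Ppp1r15a, which ends the response, fell by 2.64 ± 0.14. Of 29 genes of the endoplasmic reticulum and secretion 15 rose, Ssr2 (2.06) and Spcs3 (2.04) among them, and 6 fell (20 higher and 2 lower after median scaling), with Ero1b (-2.05 ± 0.09), Sec11c (-1.05 ± 0.06) and Calr (-0.57 ± 0.04) lower on every probe set.

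Survival genes of the BCL2 and inhibitor of apoptosis families fell for 7 of 9, beside 33.1% of all genes, and were 2 higher and 4 lower after median scaling. Of the 7 with several probe sets, 3 had opposite calls. Bcl2 read 5703 and 5376 at 0 h and 1952 and 1992 at 12 h on the brightest of 5 probe sets, all of which fell (-1.48 ± 0.06, adjusted p = 6.7e-11). The wild-type fall was -0.98 ± 0.06. Mcl1, a short-lived survival protein, fell on 4 of 6 probe sets, with differences of -0.90 to -1.46, and the other 2 were not called. Bcl2l1, which encodes BCL-XL, was 1 of the 2 that rose, with 355 and 256 at 0 h and 628 and 874 at 12 h (1.25 ± 0.17). Only 1 of its 4 probe sets passed the filter on dim values. Its wild-type arrays read 442 and 487 at 0 h and 2177 and 1777 at 12 h (2.05 ± 0.17). Bcl2l2 was the other (0.85 ± 0.28), with opposite calls.

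Of 15 death genes 5 rose and 5 fell, shares near the 25.9 and 33.1% of all genes, with 7 higher and 1 lower after median scaling. Bcl2l11, which encodes BIM, the death protein that follows antigen receptor signals, read 2651 and 3634 at 0 h and 10337 and 9480.2 at 12 h (1.67 ± 0.11) and rose on 4 of 5 probe sets, beside 1.54 ± 0.11 in wild type. Bbc3, which encodes PUMA, read 27.2 and 78.7 at 0 h and 191 and 165 at 12 h (1.60 ± 0.33, adjusted p = 0.00088), and Bid was higher (1.32 ± 0.13) with opposite calls. Apaf1, the scaffold of the apoptosome, fell on every probe set (-0.78 ± 0.20), and Bak1 fell by 1.22 ± 0.31. Of 18 genes listed for the p53 pathway, 8 rose and 6 fell, beside 25.9 and 33.1% of all genes. Apart from Cdkn1a (3.59) and Rps27l (3.34), described above, the largest rises were Phlda3 (1.74), Aen (1.32), Ei24 (1.20) and Plk3 (1.18). The largest falls were Trp53inp2 (-5.36), the autophagosome gene described above, Plk2 (-1.74), Trp53inp1 (-1.57) and Sesn3 (-1.50).

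Surface genes of the resting follicular B cell fell. Of 17 tested, 13 were lower and 2 higher (median -1.56, 5 higher and 10 lower after median scaling). Opposite calls were found in 3 of the 10 with several probe sets. Cr2, the complement receptor CD21 on which the sort was gated, read 7552 and 7837 at 0 h and 343 and 495 at 12 h (-4.17 ± 0.15, adjusted p = 2.6e-11), and Fcer2a, the gated CD23, read 6452 and 5596 at 0 h and 1448 and 1472 at 12 h and fell on both probe sets (-2.03 ± 0.09). Cd22, an inhibitory sialic acid receptor, read 22074 and 22551 at 0 h and 2787 and 2764 at 12 h (-3.00 ± 0.05). Cd9, a tetraspanin of marginal zone and plasma cells, was the largest rise, with 58.3 and 40.3 at 0 h and 600.1 and 633 at 12 h (3.29 ± 0.15), and Tnfrsf13c, the BAFF receptor, rose by 0.45 ± 0.08.

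Inhibitory receptors and adaptors fell for 13 of 22 and rose for 3, Ptpn22 (0.70), Csk (0.36) and Ptpn11 (0.29), with 6 higher and 10 lower after median scaling. Dok3, an adaptor that dampens calcium signals, read 4617 and 4796 at 0 h and 344 and 317 at 12 h (-3.77 ± 0.08), and Cblb (-2.97), Siglecg (-2.70) and Pirb (-2.00) fell too. Ptpn6, the phosphatase SHP-1, read 3736 and 3783 at 0 h and 1491 and 1343 at 12 h and fell on both probe sets (-1.40 ± 0.08), against 0.13 ± 0.08 in wild type, not called. Of 33 genes of receptor signalling 10 rose and 17 fell (median -0.38), against 12 higher and 12 lower after median scaling (median 0.02). Opposite calls were found in 9 of the 24 with several probe sets. Syk, the first kinase of the cascade, read 8077 and 8101 at 0 h and 1584 and 1753 at 12 h and fell on all 4 probe sets (-2.27 ± 0.07), while Fyn and the calcium channel Orai1 rose on every probe set (1.54 ± 0.15 and 1.34 ± 0.08).

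MHC class II genes, with which B cells present antigen, were lower for all 12 tested (median -1.12), and that count was 12 under median scaling and under quantile normalization. H2-Ob, a chain of the inhibitory H2-O, read 14225 and 15051 at 0 h and 2439.5 and 2197 at 12 h (-2.65 ± 0.12), and H2-DMa, which helps to load peptides, read 8379 and 8010.2 at 0 h and 2189.7 and 2146 at 12 h and fell on both probe sets (-1.91 ± 0.06). Ciita, the master regulator of the class, fell by 1.54 ± 0.17. H2-Aa, H2-Ab1 and H2-DMb2 had opposite calls. In wild type 11 of the 12 were lower.

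Homing and adhesion genes fell for 18 of 22 (median -0.80), with 3 higher and 13 lower after median scaling. Itgb7, the integrin chain of gut homing, read 2445 and 2501 at 0 h and 192 and 150.4 at 12 h (-3.74 ± 0.11), and its partner Itga4 fell on all 4 probe sets (-1.95 ± 0.09). S1pr1, the receptor for egress from lymphoid organs, read 384 and 351 at 0 h and 64.2 and 85.2 at 12 h (-2.09 ± 0.18). The rises were Cd44 (2.34), Itgb1 (0.92) and Ccr6 (0.70), and Cd44, an adhesion receptor of activated lymphocytes, read 328 and 575 at 0 h and 2305 and 2245 at 12 h on the brightest of 3 agreeing probe sets, with 0.50 ± 0.17 in wild type.

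Activation and costimulation genes were split, with 8 of 22 higher and 9 lower. Besides Il2ra, the transferrin receptor Tfrc and Cd86 rose on every probe set (0.78 ± 0.07 and 0.37 ± 0.07). Slamf1, a self-ligand of lymphocytes, read 2332 and 2384 at 0 h and 302 and 276 at 12 h and fell on both (-2.96 ± 0.13), and Slamf6 (-1.79) and Icosl (-1.63) fell on every probe set. The early activation antigen Cd69 was below rest (-1.88 ± 0.09). Of 21 cytokine receptor genes 6 rose and 10 fell (7 higher and 6 lower after median scaling), and Il4ra, the interleukin 4 receptor chain, read 596 and 549 at 0 h and 76.7 and 112 at 12 h (-2.43 ± 0.16). Of 19 secreted factors 6 rose and 5 fell. For both lists the shares over all genes are 25.9% higher and 33.1% lower, and the secreted factors lie near them. Adm, the peptide adrenomedullin, read 206 and 264 at 0 h and 1817 and 1589.7 at 12 h (2.78 ± 0.15), less than the 4.18 ± 0.15 of wild type, and Ccl4 rose by 2.71 ± 0.10. The lymphotoxins Ltb (-2.57) and Lta (-2.04) and Il16 (-2.15 ± 0.07) fell, Il16 on all 4 probe sets.

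Genes of quiescence fell for 19 of 25 (median -0.81) and rose for 3, Il7r (0.81), Slfn2 (0.64) and Foxo3 (0.63), with 6 higher and 14 lower after median scaling. Foxo1, the factor that keeps lymphocytes at rest, read 2995 and 3102 at 0 h and 486 and 561 at 12 h (-2.51 ± 0.09) and fell on 2 of 3 probe sets. Besides Klf4, Klf2 (-2.51), Klf6 (-2.45), Klf13 (-2.23) and Klf7 (-2.13) were lower, and so was Irs2 (-2.90 ± 0.14). Pik3ip1, an inhibitor of PI3 kinase, fell on both probe sets (-1.17 ± 0.10), by more in wild type (-2.54 ± 0.10, interaction 1.37 ± 0.14, adjusted p = 3.5e-06).

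Of 35 B cell transcription factors 10 rose and 18 fell (median -0.48, 15 higher and 16 lower after median scaling). Probe sets were called in opposite directions for 7 of the 21 with several. Myb, a progenitor factor, read 219 and 241 at 0 h and 1577 and 1476 at 12 h and rose on both probe sets (2.65 ± 0.12), and Ahr, the aryl hydrocarbon receptor, rose by 2.37 ± 0.16. Irf8 rose on every probe set (0.53 ± 0.05). Pax5, which keeps B cell identity, read 936 and 766 at 0 h and 412 and 462 at 12 h and fell on both (-0.93 ± 0.13), and Pou2f2 (-1.88), Fli1 (-1.50), Ebf1 (-1.19), Ikzf3 (-1.20) and Elf1 (-0.48) fell on every probe set. Ets1 fell on 3 of 4 probe sets (-2.88 ± 0.06) and Bcl6, the germinal centre repressor, fell too (-1.79 ± 0.18).

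Interferon-stimulated genes fell for 21 of 26 (median -1.29) and rose for 3, Bst2 (2.72), Trim30a (0.40) and Gbp3 (0.40). Ddx58, the RNA sensor RIG-I, read 1044 and 1136 at 0 h and 198 and 158 at 12 h and fell on all 3 probe sets (-2.52 ± 0.12). Gbp2, a guanylate-binding GTPase, read 1385 and 1301 at 0 h and 195 and 232 at 12 h (-2.57 ± 0.17), and Xaf1 (-2.99), Rtp4 (-2.87), Ifit1 (-2.23) and Irf7 (-2.09) fell too. In wild type 19 of the 26 were lower. Toll-like receptors and their adaptors fell for 11 of 19, with Tlr7 (-2.49), Irak3 (-1.90) and Tlr4 (-1.19) lower on every probe set, and rose for Myd88 (0.66), Cnpy3 (0.46) and Tirap (0.28). After median scaling 4 of these 19 were higher and 8 lower. All 8 GIMAP GTPases tested fell (median -1.26), and the 3 with several probe sets, Gimap7 (-4.12), Gimap4 (-1.97) and Gimap6 (-0.90), fell on every one. All 8 fell in wild type as well.

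**Figure D4:**
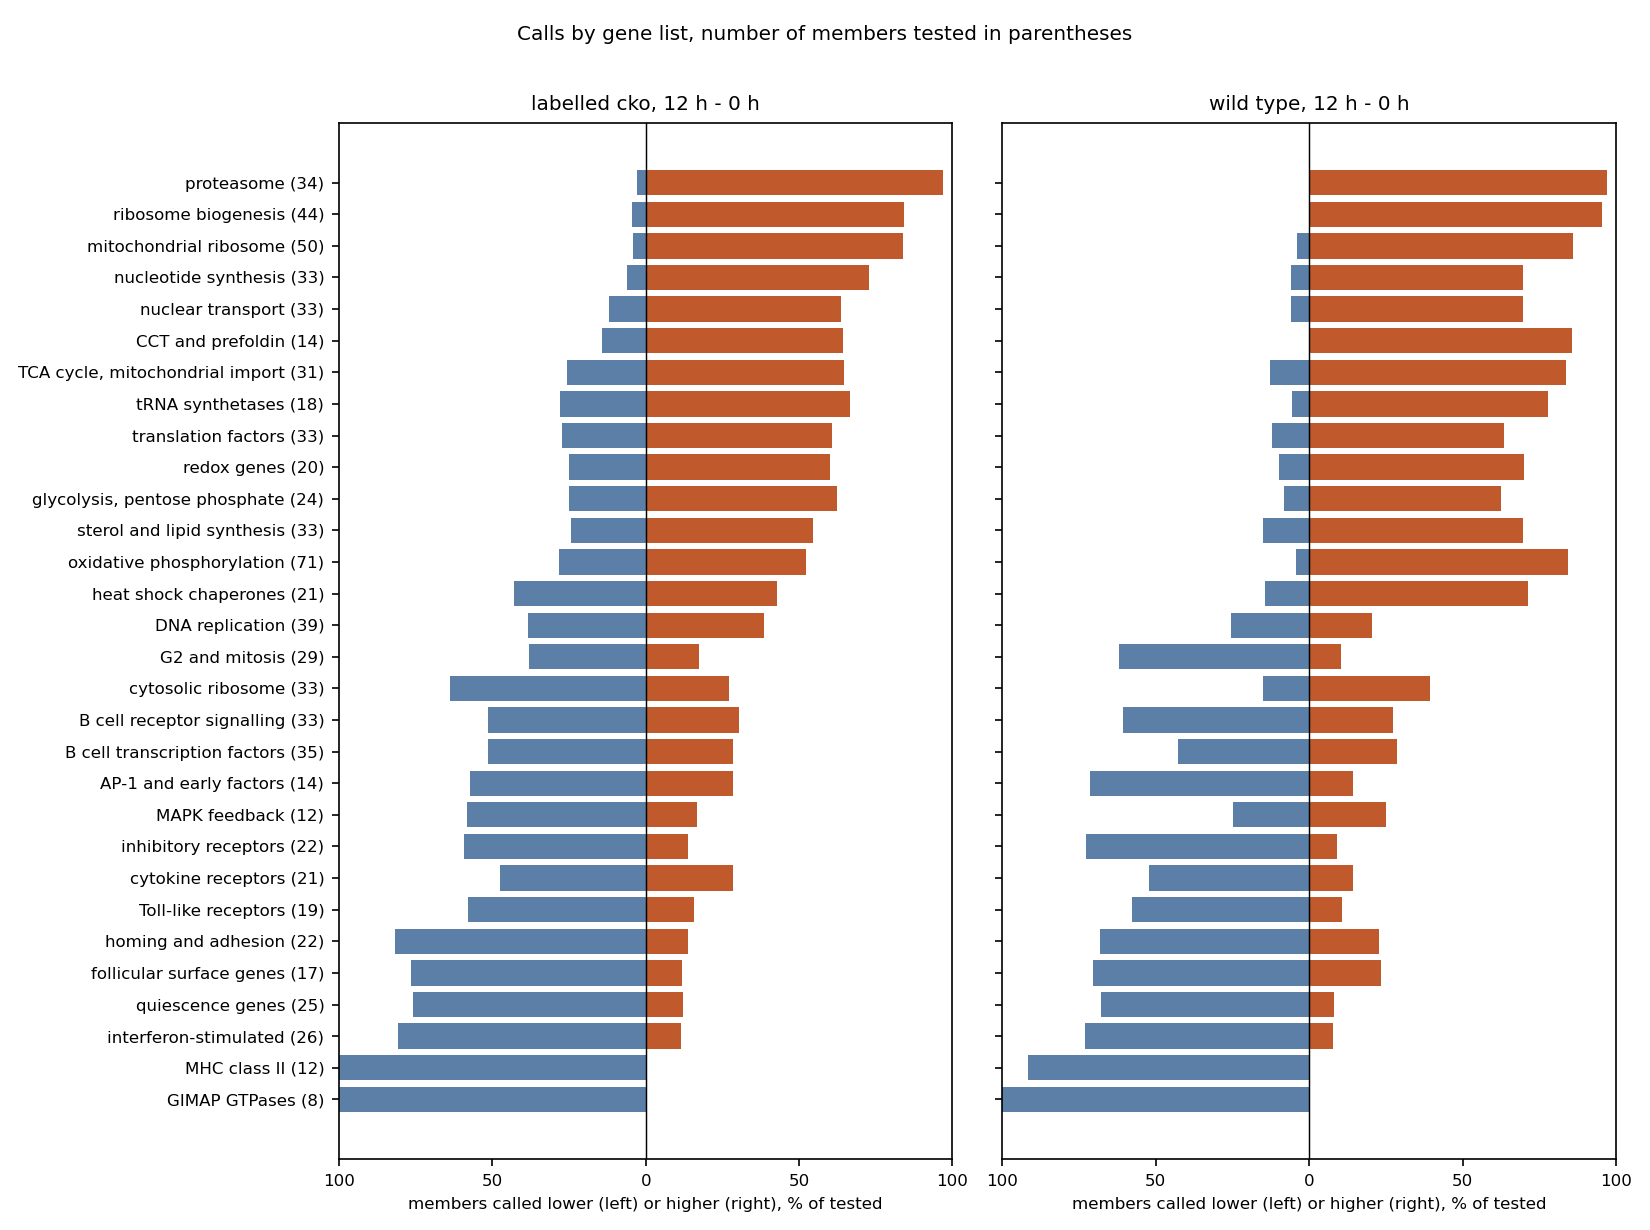
Members called higher (orange, to the right) or lower (blue, to the left) as a percentage of those tested, for 30 gene lists at 12 h against 0 h, in cko (left) and wild type (right), with the number tested in parentheses. Proteasome genes lie highest in cko with 33 of 34 higher, and MHC class II (12 of 12) and GIMAP (8 of 8) genes lie lowest. Oxidative phosphorylation, heat shock and cytosolic ribosome genes have longer blue bars in cko than in wild type on the deposited scale, while after median scaling of cko the first has 2 of 71 lower.

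Among 32 cytoskeletal genes 10 rose and 20 fell (12 higher and 13 lower after median scaling). Vim, the intermediate filament vimentin, read 1762 and 1586 at 0 h and 174 and 283 at 12 h and fell on all 3 probe sets (-2.83 ± 0.19), close to -2.96 ± 0.19 in wild type. Actb itself fell on every probe set past the filter (-0.93 ± 0.06). The actin control probe sets, which were not in the fit, differed in direction by position. Their cko means at 0 h and 12 h were 32020 and 12890 for 3′, 3323 and 3604 for the middle and 605.7 and 2451 for 5′. Cap1 and Rac1 rose on every probe set (1.62 ± 0.09 and 0.98 ± 0.06). Of 33 lysosome and autophagy genes 13 rose and 14 fell (17 higher and 7 lower after median scaling), with opposite calls in 8 of 23 with several probe sets. Gabarapl1, an ATG8 protein of the autophagosome, read 176 and 217 at 0 h and 1506 and 1432 at 12 h and rose on both probe sets (2.81 ± 0.13), and Tfeb, the factor that drives lysosome genes, read 1262 and 1290.4 at 0 h and 103 and 97.7 at 12 h (-3.47 ± 0.19) on 1. Of 21 genes of G protein and cyclic AMP signalling 6 rose and 11 fell, with Rgs16 (1.89 ± 0.29) and Rgs1 (-2.58 ± 0.20) at the ends. Opposite calls were found in 6 of the 12 with several probe sets, beside 21% over all such genes. Of 33 chromatin modifiers 12 rose and 14 fell (17 higher and 10 lower after median scaling), and Chd4 rose on all 3 probe sets (1.91 ± 0.10).

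The wild-type response shares no array with the cko one and was called for 5842 genes (47.9%), 3025 higher (24.8%) and 2817 lower (23.1%). In both genotypes 1763 genes (14.5%) rose and 1837 (15.1%) fell, 2699 (22.1%) were called in cko alone, and 342 (2.81%) and 543 (4.45%) went in opposite directions. Of the 467 genes that rose on every probe set in cko, 338 rose in wild type, 28 fell and 101 were not called. Of the 550 that fell on every probe set, 347 fell in wild type, 44 rose and 159 were not called. On every probe set in both genotypes, 186 genes rose and 202 fell. Across genes, which are not independent replicates, the responses correlated at r = 0.54 over all 12190. The value was 0.75 over the 1017 genes with agreeing probe sets and 0.39 over the 1169 with opposite calls. Both subsets were chosen on the cko calls, and the 1017 hold no gene without a called change in cko. Their r values therefore cannot be set against 0.54 as a measure of probe set agreement.

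**Figure D5:**
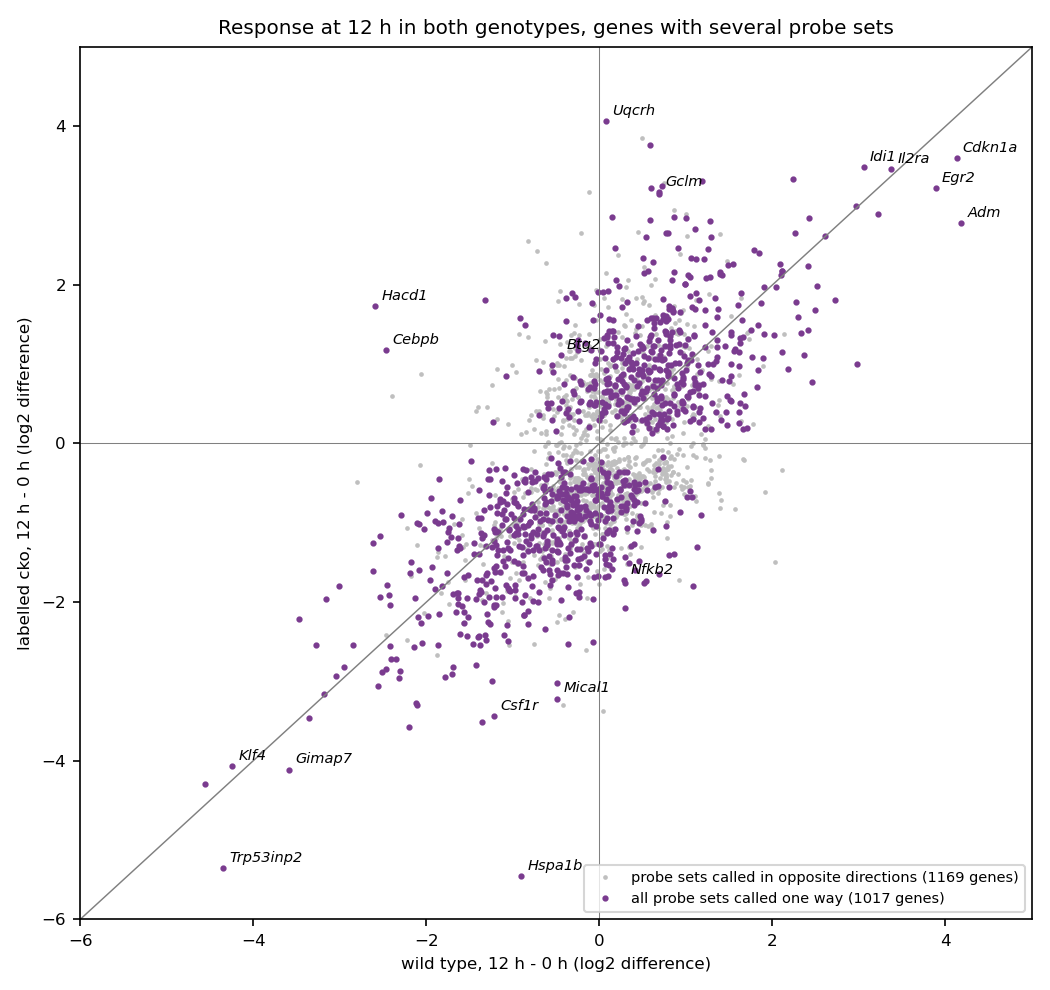
Log2 difference at 12 h minus 0 h in wild type (x) and in cko (y) for genes with several probe sets, purple for the 1017 genes with all probe sets called 1 way in cko and grey for the 1169 with opposite calls, with the line of equal response. Cdkn1a, Idi1, Il2ra and Klf4 lie near the line, and Uqcrh (4.06 against 0.07) and Hspa1b (-5.46 against -0.90) lie far from it.

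The difference between the responses, tested as an interaction, was called for 5267 genes (43.2%), 2290 (18.8%) more positive in cko and 2977 (24.4%) more negative. On every probe set of genes with several, it was called positive for 199 (3.57%) and negative for 181 (3.25%), and 961 genes had opposite calls. Since 1 of its 4 groups lies on the other side of the control-probe division, genotype and that division cannot be told apart in this test. After median scaling 71.6% of the called interactions were positive, against 43.5% as deposited.

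The largest positive differences with agreeing probe sets were Hacd1 (4.32 ± 0.41), an elongation dehydratase of long fatty acids, and Uqcrh (3.99 ± 0.17). Hacd1 read 28.0 and 30.2 at 0 h and 119 and 149.7 at 12 h in cko and 128 and 141 at 0 h and 16.2 and 3.4 at 12 h in wild type, so that it rose in the former and fell in the latter. Next came Rab24 (2.50 ± 0.17), a GTPase of autophagy, Gclm (2.48 ± 0.21), Slc6a6 (2.45 ± 0.28), Pcmtd1 (2.40 ± 0.13), Washc4 (2.35 ± 0.16), a part of an endosomal actin complex, and Rhoh (2.33 ± 0.18), a haematopoietic GTPase. Rhoh fell in wild type (-2.81 ± 0.13), and its cko probe sets were called in opposite directions. In Uqcrh, Slc6a6, Pcmtd1 and Washc4 the 2 h means of both genotypes lay nearer to cko 12 h than to the remaining groups. Those of Hacd1, Rab24, Gclm and Rhoh did not.

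The largest negative differences were Hspa1b (-4.56 ± 0.14), Vat1 (-3.23 ± 0.26), Mical1 (-2.73 ± 0.09), Thap7 (-2.57 ± 0.17), Diaph1 (-2.53 ± 0.10), Telo2 (-2.43 ± 0.20), Sbno2 (-2.43 ± 0.14) and Dctn1 (-2.37 ± 0.09). Mical1 read 6742 and 6649 at 0 h and 707 and 702 at 12 h in cko. In wild type it read 5031 and 5133 at 0 h and 3539 and 3712 at 12 h, a fall in both of unequal size. At 2 h Mical1 read 578 and 570 in wild type and 493.5 and 488 in cko. Dctn1, the large subunit of the dynein activator dynactin, read 10785 and 10598 at 0 h and 2629.5 and 2435 at 12 h in cko, and Telo2, a chaperone of large kinases, read 759 and 572 at 0 h and 284 and 233 at 12 h. Both fell on every probe set in cko and were higher in wild type on the brightest (0.30 ± 0.06 and 1.13 ± 0.14), while the other Dctn1 probe set fell in wild type (-0.87). Vat1 rose in wild type (2.68 ± 0.19) and fell in cko (-0.55 ± 0.19), with 1 of 3 probe sets called. In Mical1, Thap7, Diaph1, Sbno2 and Dctn1 the 2 h means of both genotypes lay nearer to cko 12 h than to the remaining groups. Those of Hspa1b, Vat1 and Telo2 did not.

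Genes that fell on every probe set in cko and rose in wild type, besides Telo2 and Nfkb2, included the splicing genes Sf3a2 (-0.90), Sart1 (-1.48), Xab2 (-1.51) and Sf3b4 (-0.56), which were chosen after their values were seen. Their wild-type differences were 1.17 ± 0.06, 0.45 ± 0.09, 0.34 ± 0.10 and 0.80 ± 0.09. Genes that did the reverse included Cebpb (1.17), Btg2 (1.11), Selenok (1.90) and Csrp1 (1.36), the last 2 also chosen after their values were seen, with wild-type differences of -2.47 ± 0.18, -0.45 ± 0.07, -0.32 ± 0.08 and -0.47 ± 0.15.

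The widest gaps between probe sets of a gene give the size of the disagreement. Hnrnpab, an RNA-binding protein, had 7 probe sets, of which 1 fell by 3.89 from a mean of 3373 to 217 while another rose by 2.25 from 266 to 1326. Hnrnpr ranged from -1.27 to 4.47, Ywhaz, a 14-3-3 protein, from -3.12 to 2.79, Smu1 from -2.38 to 3.28 and Tmod3, a capper of actin filaments, from -3.03 to 2.56. In wild type the same pair of Hnrnpab probe sets differed by -0.29 and 0.03, neither called. No direction is given for these genes.

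Markers of other cell types were read on the same arrays. The summed signal of 16 T and NK cell markers was 3781 and 4177 at 0 h and 1412 and 1355 at 12 h, that of 10 neutrophil markers 8104 and 8070 at 0 h and 3592 and 3386 at 12 h, and that of 10 B cell markers 112584 and 114939 at 0 h and 62295 and 65904 at 12 h. Of 13 T and NK markers tested 0 rose and 9 fell, of 11 myeloid markers 3 rose and 5 fell, and of 9 neutrophil markers 1 rose (Camp, 1.66 ± 0.10) and 6 fell. Of 8 erythroid and platelet markers 1 rose (Car2, 1.11 ± 0.17) and 4 fell. After median scaling 5, 4, 4 and 2 of these 4 lists were lower. Cd3e, a chain of the T cell receptor complex, read 127 and 184 at 0 h and 17.4 and 20.0 at 12 h and the calprotectin chain S100a8 4664 and 4524 at 0 h and 953 and 926 at 12 h. Cd4, Itgam and C1qa had signals of at most 18.3 on the 4 arrays. In wild type at 0 h the neutrophil sum was higher, at 22532 and 23159, and the T and NK sum alike, at 3996 and 3966. The erythroid and platelet sum at 0 h was 1880 and 2055 in wild type and 604 and 537 in cko. The part of these cells in the falls of homing, interferon and MHC class II genes, and in the differences between the genotypes, was not tested.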

How the data were processed

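The authors deposited a linear intensity for every probe set of each array, made with GCOS 1.4 per the submitters' processing notes. How probes were summarised was not stated. Per the labels' protocols, 100 ng of RNA went through 2 rounds of amplification. As checked on the values, the mean without the top and bottom 2% was 250 on each array, and the number of arrays limits precision.

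Values were used as log2(signal + 16) and not normalized again. Of 45101 probe sets, 34945 had 1 gene symbol, 932 several and 9160 none, and 64 were controls. Symbols matched RefSeq by Entrez identifier for 99.4%. A mean above 5.14, the 40th percentile, was required, which left 21906 probe sets and 12190 genes, each read by its brightest probe set. Limma 3.58.1 in R 4.3.3 fitted 1 mean per group on all 12 arrays (6 residual and 7.3 prior degrees of freedom), with an intensity trend, and was tested on simulated data. The same fit on every probe set gave the agreement within genes. The tests were the 12 h response in each genotype and their interaction.

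The genes named are the 15 largest rises and falls among called genes whose probe sets, 2 or more, were all called the same way with no overlap of arrays, members of the described lists, the 8 largest interactions each way on every probe set, the 6 widest gaps between probe sets, and 10 fixed genes. Riken clones, predicted genes and immunoglobulin variable segments were not named. The members, lists and rules were chosen with earlier results of these data known. Within replicate numbers, deviations correlated with those of cko 0 h at -0.014 to 0.008, so no pairing with cko 0 h was seen. Other pairs of groups were not compared. The alternatives tried were other pseudocounts, scalings, filters and fits, other choices of probe set, a replicate block and each array left out in turn.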

Additional observations from a re-analysis of the deposited data

Results flagged for a closer look

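The 12 h responses of the genotypes, tested against each other in the limma fit, differed for 5267 of 12190 genes at an adjusted p under 0.05. The values below are the cko response minus the wild-type response (log2, n = 2 arrays in each of 4 groups) of genes named above by rule, 46 of 55 of which were called. Another 262 genes are named in the text, of which 186 were called, 86 of them more positive in cko. Genotype and the division of the arrays by control probes cannot be told apart in any of them.

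Of the genes with the largest rises in cko, the difference was positive for Uqcrh (3.99), Msmo1 (3.18), Atp5o (2.63), Haghl (2.52), Gclm (2.48), Slc6a6 (2.45), Nop16 (2.12), Cops6 (1.99) and Rps27l (1.10), and negative for Egr2 (-0.67), Cdkn1a (-0.54) and Slco4a1 (-0.33) on the brightest probe set. Of the genes with the largest falls it was negative for Hspa1b (-4.56), Mical1 (-2.73), Diaph1 (-2.53), Csf1r (-2.22), St3gal1 (-2.15), Jun (-1.37), Sorl1 (-1.19), Atg13 (-1.16), Trp53inp2 (-1.01) and Gimap7 (-0.53). Among signalling, cycle and survival genes it was positive for Nr4a3 (1.31), Myc (0.52) and Egr1 (0.26) and negative for Fos (-0.90), Zfx (-0.85), Bcl2l1 (-0.79), Mcl1 (-0.68) and Ccnd2 (-0.50). For Egr2, Cdkn1a, Mcl1 and Ccnd2 another probe set was called positive, at 0.58, 1.62, 1.16 and 1.53. The other probe set was not called for Atp5o (-0.10), Nop16 (0.52), Msmo1 (1.08), Cops6 (0.23), Jun (-0.04) and St3gal1 (-0.23). Nor was it for Trp53inp2 (0.15), Gimap7 (0.79) and Slco4a1 (-0.09). Further probe sets not called were those of Haghl (0.99), Sorl1 (0.17), Atg13 (0.50) and Zfx (0.06 and -0.505).

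Of the genes ranked on the difference itself, it was positive for Hacd1 (4.32), Rab24 (2.50), Pcmtd1 (2.40), Washc4 (2.35) and Rhoh (2.33) and negative for Vat1 (-3.23), Thap7 (-2.57), Telo2 (-2.43), Sbno2 (-2.43) and Dctn1 (-2.37). For the genes with the widest gaps between probe sets, the brightest probe set gave Tmod3 (3.38), Ndufs4 (3.37), Ywhaz (2.17), Smu1 (-0.53), Hnrnpab (-0.92) and Hnrnpr (-1.22).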

How the results depend on the processing

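The counts of called genes, of genes with all probe sets called the same way and of genes with opposite calls kept within 1.5 times their value under other pseudocounts, scalings, filters, no intensity trend and a fit of the compared groups alone. With the probe set of the lowest mean, 2369 genes were called the same way in both genotypes, against 3600. Asking for a change of at least 2-fold as well left 3401 genes in cko, 2068 in wild type and 2527 in the interaction. Leaving out each array in turn gave 6298 to 6507 calls in cko, 5092 to 5208 in wild type and 4564 to 4852 in the interaction, with 762 to 819 genes whose probe sets were all called the same way and 891 to 976 with opposite calls. A lone array left in a group was assumed to vary as the other groups did. With replicate number as a block the counts were 7156, 5827 and 5253, with 3589 called the same way in both genotypes, 1012 with all probe sets called the same way and 1159 with opposite calls. The numbers showed no pairing with cko 0 h, and 1 of 317 named genes lost its call under the block, Egr4. Leaving out 1 array ended the cko call of 11 to 13 named genes, and Bak1, Bcl2l2, Ccna2, Cdkn2c, Cnpy3, Egr4, Foxo3, Gbp3, Itgb1, Lta, Mlx, Mrpl13, Nop10, Pgk1, Prps2, Ptpn11, Thoc1, Tirap, Tlr4, Trib3, Umps and Vat1 lost theirs in at least 1 of these fits.

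No named gene changed sign under the pseudocounts, filters, fits and left-out arrays tried. Under quantile normalization Nop10 (0.04) and Psma6 (0.02) did, and under median scaling Hnrnpab (0.08), Mrpl13 (0.01), Mrpl3 (0.01), Nop10 (0.22), Nup62 (0.06), Prps2 (0.15), Psma6 (0.24) and Thoc1 (0.01). Averaged over probe sets the sign changed for Atf4 (-0.23), Bop1 (0.10), Ccnd3 (-0.18), Cct7 (0.33), H2-Ab1 (0.30), Hnrnpr (1.27), Hsp90aa1 (0.56), Hspa8 (0.04), Mrpl3 (0.14), Ms4a1 (-0.68), Nab1 (0.38), Nop10 (1.52), Nup62 (0.26), Psma3 (-0.37), Psmb1 (-0.16), Rhoh (1.13), Tirap (-0.49), Tmod3 (-0.40), Tnpo1 (0.32) and Trim30a (-0.28). With the probe set of the lowest mean it changed for Abca1 (0.42), Alyref (-0.47), Atf4 (-1.66), Bcl2l2 (-0.83), Bid (-0.67), Bop1 (0.74), Ccnd2 (-0.43), Ccnd3 (-1.19), Cct7 (1.16), Dlst (0.13), Fosl2 (-0.30), Foxo1 (0.13), Foxo3 (-0.25), H2-Ab1 (0.86), H2-DMb2 (0.94), Hnrnpr (1.47), Hspa14 (-0.35), Hsph1 (0.09), Idh3a (-0.22), Klf13 (0.48), Klf7 (0.04), Mrpl13 (0.20), Mrpl3 (0.13), Ms4a1 (-1.45), Mxd1 (0.45), Nab1 (1.56), Nop10 (3.23), Nup62 (0.30), Pfdn5 (0.08), Psma3 (-1.29), Psmb1 (-1.27), Rhoh (2.74), Rrm2 (0.97), Sesn3 (0.43), Slc2a1 (0.53), Smu1 (-2.38), Socs2 (0.39), Tirap (-1.26), Tmod3 (-2.20), Tnpo1 (0.32), Tob2 (-0.40), Trim30a (-0.95), Vat1 (0.21) and Ywhaz (-3.12). A direction given for these genes therefore holds for the brightest probe set. The number of arrays, 2 a group, limits the precision of each value.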
